A study of Mus musculus with 4 samples.

Results

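Elastic fibre assembly genes were described in mouse tumours with and without knockdown of Taz. The set holds 10 genes, chosen by name from the symbols in the deposited expression table: Eln, Fbn1, Fbn2, Fbln1, Fbln2, Fbln5, Efemp2, Mfap2, Mfap4 and Mfap5. All 10 were found among the 15424 genes of the table. The names were picked with the shTaz and shLuc values of these tumours in view, so their differences are a description and not a test.

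The subcutaneous tumours came from R728T1 cells transplanted into nude mice, a host without mature T cells. The labels call the line non-SMCs derived from an Rb/P53 mouse model, without spelling out the term, and give small cell lung cancer as the cell type. One group carried knockdown of Taz (shTaz) and the other a luciferase shRNA (shLuc, spelled shLuciferace in the labels). Both groups share the R728T1 cells, the nude mouse host and the subcutaneous site, and the shRNA sequences, the age of the mice and the number of clones are not given in the sources used here. The labels list 2 samples per group, 4 in all, but the table holds 1 column per group. Whether a column is a mean or a single library is not stated, so no value has an SD or a replicate check, and no test or p-value is given.

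An elastic fibre has a core of crosslinked elastin laid on a scaffold of fibrillin microfibrils. Fibulins bring tropoelastin, the soluble elastin monomer, together with the microfibrils and the crosslinking enzymes, and microfibril-associated proteins bind the fibrillins. The fibres give arteries, lung and skin their recoil, and fibroblasts and smooth muscle cells are their usual source. Fibrillin microfibrils also hold latent TGF-beta in the matrix through binding proteins.

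Both genes that carry the name Taz were lower in the shTaz column, neither of them 2-fold as deposited; on the log2 scale set out below Wwtr1 differed by -0.60, or by -1.03 with a trend with base composition removed. Levels are in FPKM, fragments scaled for the length of the transcript and the number mapped. Wwtr1, which encodes TAZ, was at 15.1 FPKM in the shTaz column and 23.4 FPKM in the shLuc column, and Taz, in this table the older symbol of Tafazzin, was at 9.50 FPKM in the shTaz column and 13.7 FPKM in the shLuc column. Of the neuroendocrine markers reported here, Chga and Calca were not among the listed genes, and Ncam1 (43.8 FPKM in the shTaz column and 39.8 FPKM in the shLuc column) and Uchl1 (1.51 FPKM in the shTaz column and 10.1 FPKM in the shLuc column) reached a mean of 1 FPKM. FPKM summed to 427921 in the shTaz column and 501728 in the shLuc column, and the sequencing depth is unknown.

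Eln, which encodes elastin, was much lower in shTaz tumours. It was at 31.6 FPKM in the shTaz column and 183.7 FPKM in the shLuc column, so that the shTaz level was 17.2% of the shLuc level. Mfap2 and Fbln1 were also much lower in shTaz tumours, whereas Fbln2, the most abundant gene of the set in both columns, was higher. The fibrillin gene Fbn1 and the fibulin genes Fbln5 and Efemp2 lay closer together. The difference of a gene is given below as log2((shTaz FPKM + 1) / (shLuc FPKM + 1)), and a difference of 1 on this scale is called 2-fold. Of the 10 genes, 3 were 2-fold lower in the shTaz column and none was 2-fold higher. Of the 11650 genes that averaged 1 FPKM or more over the columns, 3.25% were 2-fold lower and 3.96% were 2-fold higher, or 7.21% in either direction. The median difference was -0.52 over the 10 genes and 0.12 over all 11650 genes.

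**Figure D1:**
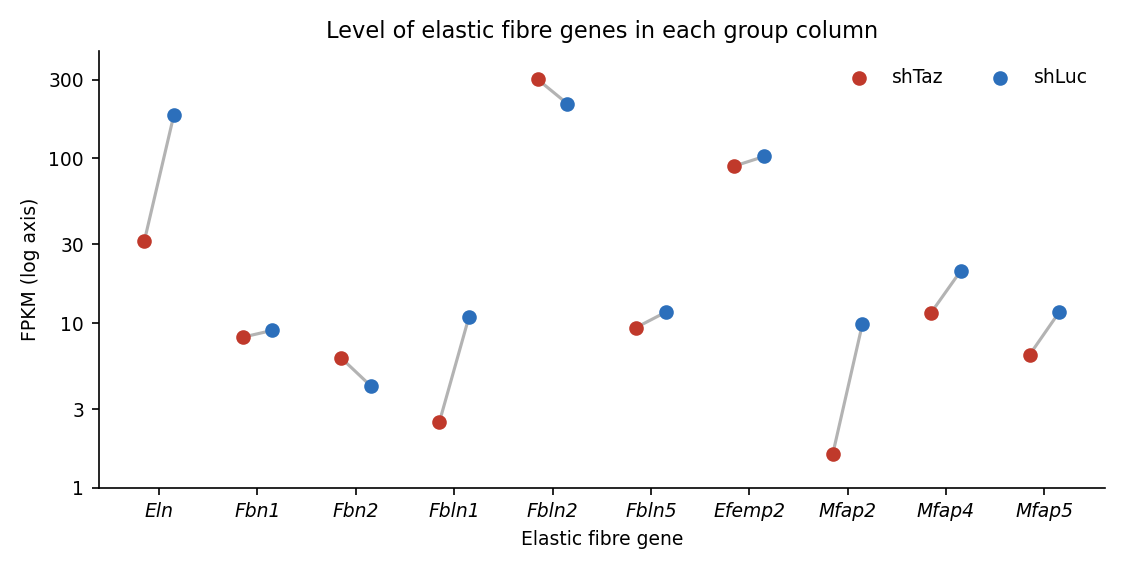
Level in FPKM, on a log axis, of each elastic fibre gene in the shTaz column (red, left) and the shLuc column (blue, right), with 1 value per group and no error bar because no replicate values were used. Eln, Fbln1 and Mfap2 have the steepest lines, and Fbn2 and Fbln2 slope the other way.

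The labels do not say whether the shRNA targets Wwtr1 or Tafazzin. The protein of Wwtr1, TAZ, does not bind DNA itself and reaches promoters through TEAD factors, so promoters of the set were searched for TEAD-type letters, which bear on the knockdown only if Wwtr1 is the target. RefSeq promoter windows of GRCm38.p6, from 250 bases before to 50 bases after a start site, were matched by symbol for 6 of the 10 genes, with 11 windows in all. Promoters of Eln, Fbn2, Mfap4 and Mfap5 were not used here. The TEAD-type letters GGAATG, searched on both strands, were found in 1 of the 11 windows, that of the upstream start site of Mfap2. They were in 14.7% of all 32851 windows. Some of the 11 windows overlap each other, and counted by gene the letters were in 1 of the 6 genes, beside 16.6% of 27025 genes with a window. No window of the 6 genes held the AP-1-type letters TGANTCA, which were in 7.81% of all windows and 8.97% of genes. Nor did any hold the TATA box letters TATAAA, which were in 13.6% of windows and 15.7% of genes. With a single match, no motif overlapped another. A letter match is not a binding site, and its absence says only that these letters are not in the window. Below stand the Mfap2 window with the match, in capitals, and the windows of Fbln1 and Fbln2, shown because these related genes differed in opposite directions. All 3 are on the plus strand, at chr4:141010174-141010473, chr15:85205699-85205998 and chr6:91212514-91212813.
Mfap2, upstream start site: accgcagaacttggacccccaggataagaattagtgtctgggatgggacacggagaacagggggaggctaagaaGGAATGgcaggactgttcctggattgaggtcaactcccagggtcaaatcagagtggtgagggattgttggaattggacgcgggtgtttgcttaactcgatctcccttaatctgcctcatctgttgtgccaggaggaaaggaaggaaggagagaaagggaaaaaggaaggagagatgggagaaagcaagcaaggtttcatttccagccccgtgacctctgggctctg
Fbln1, upstream start site: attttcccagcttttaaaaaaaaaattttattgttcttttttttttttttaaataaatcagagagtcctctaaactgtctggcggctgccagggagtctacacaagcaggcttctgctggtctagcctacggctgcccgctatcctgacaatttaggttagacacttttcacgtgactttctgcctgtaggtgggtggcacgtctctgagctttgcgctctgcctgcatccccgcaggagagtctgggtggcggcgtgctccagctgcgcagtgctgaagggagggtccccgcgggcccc
Fbln2: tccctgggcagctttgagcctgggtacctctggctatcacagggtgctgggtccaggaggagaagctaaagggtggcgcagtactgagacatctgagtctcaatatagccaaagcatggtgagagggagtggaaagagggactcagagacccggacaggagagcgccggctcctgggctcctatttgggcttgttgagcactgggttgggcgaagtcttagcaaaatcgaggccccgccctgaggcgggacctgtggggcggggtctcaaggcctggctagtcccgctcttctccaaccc
The GGAATG match begins at base 75 of the Mfap2 window. The GC content of these windows was 52.0% for Mfap2, 51.7% for Fbln1 and 60.3% for Fbln2, beside a median of 52.7% over all windows.

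Eln (Entrez 13717) encodes tropoelastin, the monomer of the fibre core. It lies on chromosome 5 of mm10 from 134702593 to 134747323 on the minus strand, and its longest annotated transcript has 3853 bases in 37 exons. At 31.6 FPKM in the shTaz column it stood at rank 1771 of 15424 genes, and at 183.7 FPKM in the shLuc column at rank 342. The log2 difference was -2.50, and 33 of the 11650 genes lay lower.

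The fibrillins form the microfibril scaffold and did not share that difference. Fbn1 (Entrez 14118, chromosome 2 from 125300594 to 125507993, minus strand), the main fibrillin of adult tissue, was at 8.21 FPKM in the shTaz column and 9.03 FPKM in the shLuc column. Its log2 difference was -0.12, and it turned to 0.09 when each column was scaled to a sum of 1000000. Fbn2 (Entrez 14119), the fibrillin known mainly from development, was at 6.15 FPKM in the shTaz column and 4.16 FPKM in the shLuc column, a log2 difference of 0.47. The ratio of Fbn1 to Fbn2 was 1.34 in the shTaz column and 2.17 in the shLuc column. The summed fibrillin level was 14.4 FPKM in shTaz tumours and 13.2 FPKM in shLuc tumours. The ratio of Eln to Fbn1, which a single factor per column leaves unmoved, was 3.85 in the shTaz column and 20.3 in the shLuc column.

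The fibulins parted from each other. Fbln1 (Entrez 14114, chromosome 15 from 85205949 to 85286535, plus strand), a fibulin of elastic fibres and basement membranes, was at 2.52 FPKM in the shTaz column and 10.9 FPKM in the shLuc column, with a log2 difference of -1.76. Fbln2 (Entrez 14115, chromosome 6 from 91212455 to 91272540, plus strand), which binds elastin and basement membrane proteins, was at 301.2 FPKM in the shTaz column and 214.9 FPKM in the shLuc column, with a log2 difference of 0.49. Fbln2 was higher in the shTaz column and Fbln1 lower, so the ratio of Fbln2 to Fbln1 was 119.7 in the shTaz column and 19.8 in the shLuc column. Fbln2 ranked 172nd among all genes of the shTaz column and 290th among those of the shLuc column, while Fbln1 ranked 9709th in the shTaz column and 4416th in the shLuc column.

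The fibulins best known for elastic fibre assembly, from knockout mice that lack functional fibres, were not 2-fold different in any setting. Efemp2 (fibulin-4, Entrez 58859, chromosome 19 from 5473954 to 5482517, plus strand), which links tropoelastin to lysyl oxidase, was at 89.8 FPKM in the shTaz column and 102.6 FPKM in the shLuc column. Its log2 difference was -0.19, and it was 0.04 with each column scaled to a sum of 1000000. Fbln5 (Entrez 23876, chromosome 12 from 101746565 to 101819055, minus strand), which tethers elastin to microfibrils and to integrins, was at 9.40 FPKM in the shTaz column and 11.6 FPKM in the shLuc column, a log2 difference of -0.28, or -0.58 with the trend with transcript GC content removed and -0.67 with the length trend removed too. Efemp2 was 9.55 times as abundant as Fbln5 in the shTaz column and 8.82 times in the shLuc column. Summed over the 4 fibulins the level was 402.9 FPKM in shTaz tumours and 340.01 FPKM in shLuc tumours, and Fbln2 made up most of both sums.

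The microfibril-associated protein genes were all lower in the shTaz column, by unequal amounts. Mfap2 (MAGP-1, Entrez 17150, chromosome 4 from 141010418 to 141015984, plus strand), a small glycoprotein that binds fibrillin and TGF-beta family ligands, was at 1.61 FPKM in the shTaz column and 9.82 FPKM in the shLuc column. Its log2 difference was -2.05, or -2.61 with no pseudocount, so the pseudocount of 1 FPKM compressed this low value. Without a pseudocount Mfap2 differed more than Eln, which was at -2.54. Mfap5 (MAGP-2, Entrez 50530, chromosome 6 from 122505845 to 122529290, plus strand), its relative that also binds fibrillin, was at 6.41 FPKM in the shTaz column and 11.6 FPKM in the shLuc column, with a log2 difference of -0.77. Mfap4 (Entrez 76293, chromosome 11 from 61485431 to 61488900, plus strand), a fibrinogen-related protein that binds elastin and fibrillin, was at 11.6 FPKM in the shTaz column and 20.7 FPKM in the shLuc column, with a log2 difference of -0.79. The ratio of Mfap5 to Mfap2 was 3.98 in the shTaz column and 1.18 in the shLuc column. The sum of the 3 genes was 19.6 FPKM in shTaz tumours and 42.2 FPKM in shLuc tumours.

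The order of the levels changed below the first place. In the shTaz column it ran Fbln2, Efemp2, Eln, Mfap4, Fbln5, Fbn1, Mfap5, Fbn2, Fbln1 and Mfap2. In the shLuc column it ran Fbln2, Eln, Efemp2, Mfap4, Fbln5, Mfap5, Fbln1, Mfap2, Fbn1 and Fbn2. Neighbours in these orders have no replicate spread to be set against; Fbln5 and Mfap5 in the shLuc column both round to 11.6 FPKM. The ratio of the highest to the lowest gene was 186.9 in the shTaz column and 51.6 in the shLuc column.

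Fbln2 led the shTaz column alone, whereas Fbln2 and Eln shared the lead in the shLuc column. Fbln2 supplied 64.3% of the summed FPKM of the 10 genes in the shTaz column and 37.1% in the shLuc column, and Eln supplied 6.75% in the shTaz column and 31.7% in the shLuc column. Efemp2 held 19.2% of the sum in the shTaz column and 17.7% in the shLuc column. The sum itself was 468.5 FPKM in shTaz tumours and 579.1 FPKM in shLuc tumours. The column totals differed in the same direction, and the 10 genes held 0.109% of the shTaz total and 0.115% of the shLuc total. Without Eln it was 436.9 FPKM in shTaz tumours and 395.4 FPKM in shLuc tumours, so in the values as deposited the direction of the sum rested on Eln. Without both Eln and Fbln2 it was 135.7 FPKM in shTaz tumours and 180.5 FPKM in shLuc tumours.

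**Figure D2:**
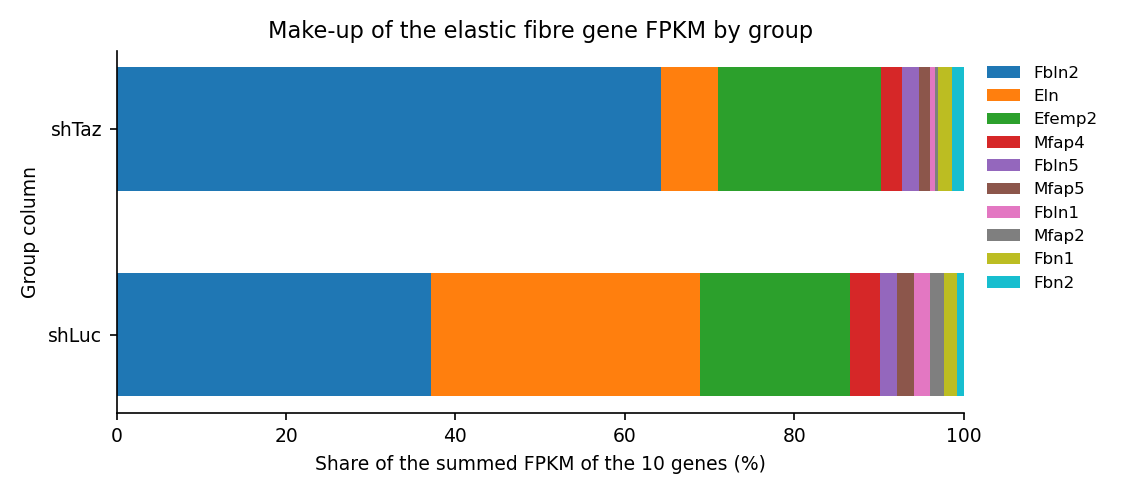
Share, in percent, of the summed FPKM of the 10 elastic fibre genes held by each gene, in the shTaz column (upper bar) and the shLuc column (lower bar). Eln takes 6.75% of the shTaz bar and 31.7% of the shLuc bar, and Fbln2 64.3% and 37.1%.

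By any amount, 8 of the 10 genes were lower in the shTaz column, and 41.7% of the 11650 genes were. Over all genes the difference followed base composition, with lower shTaz values for GC-rich transcripts (Spearman correlation of -0.56 across genes, which are not independent replicates). Eln, with 58.8% GC, and Mfap2, with 59.6% GC, are among the GC-rich genes, above 92.5% and 94.5% of the tested genes. The trend over all genes was -0.31 at the GC content of Eln and -0.36 at that of Mfap2. With the GC trend removed, the difference was -2.19 for Eln, -1.70 for Mfap2 and -1.66 for Fbln1, all still 2-fold lower. Mfap5, with 48.2% GC, lies in the range where genes tended to be higher, and its difference was -1.01 with the trend removed and -1.13 with the trend set by protein-coding transcripts, so it then counted as 2-fold lower. Fbln2 lies at 57.0% GC, where the trend was -0.22, and its difference was 0.70 with the trend removed.

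**Figure D3:**
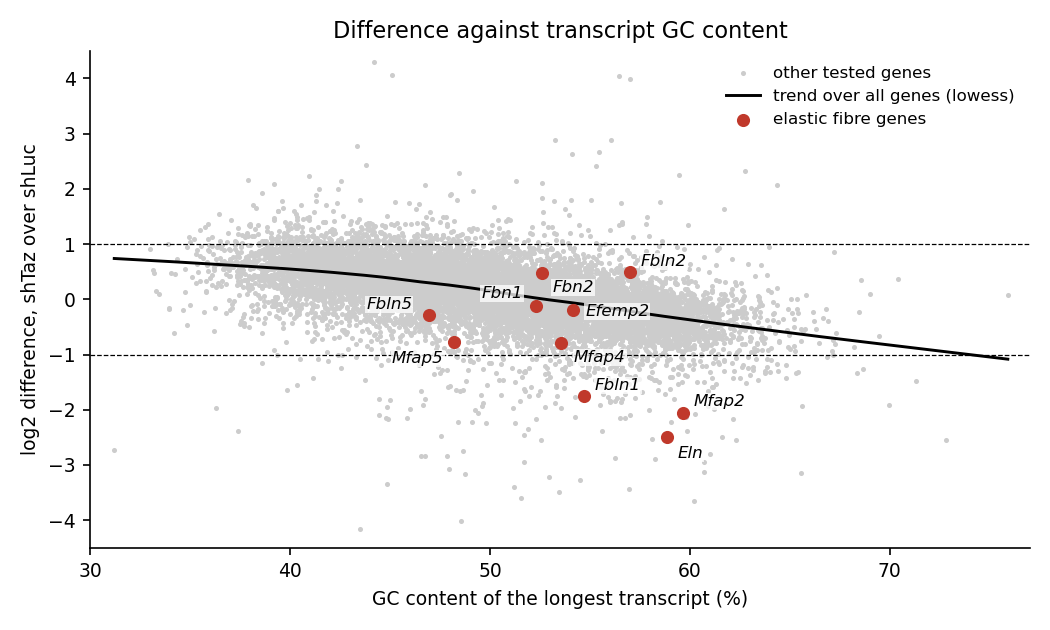
Difference on the log2(FPKM + 1) scale, shTaz over shLuc, against the GC content of the longest transcript for the tested genes with an annotated transcript (grey), with the lowess trend (black line) and the 10 elastic fibre genes (red); dashed lines mark 2-fold, and 8 of 11055 genes lie outside the axis. Eln, Mfap2 and Fbln1 lie far under the trend line and Fbln2 above it.

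Across 11 alternative settings Eln, Fbln1 and Mfap2 were 2-fold lower in each, with differences from -2.70 to -2.19 for Eln, from -2.11 to -1.66 for Fbln1 and from -2.61 to -1.48 for Mfap2. Fbn2 and Fbln2 were higher in each, from 0.17 to 0.72 for Fbn2 and from 0.24 to 0.74 for Fbln2. Mfap4 and Fbln5 were lower in each and never 2-fold. These settings reprocess the same pair of columns, by pseudocount, filter, scaling or trend, and do not replace replicates.

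**Figure D4:**
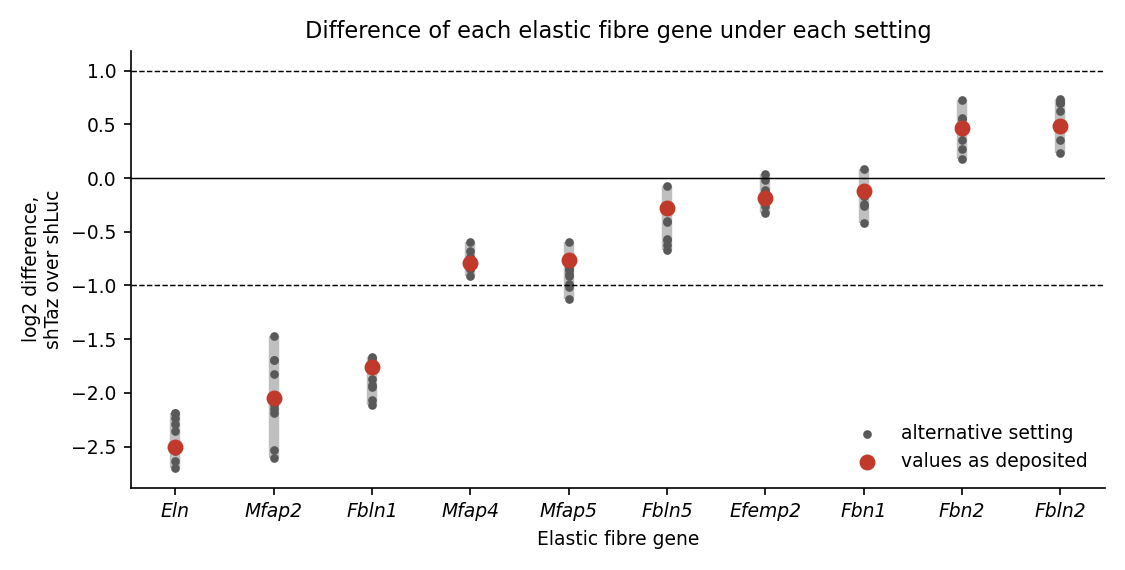
Difference of each elastic fibre gene on the log2 scale, shTaz over shLuc, from the values as deposited (red) and under 11 alternative settings (grey points, bar from lowest to highest); dashed lines mark 2-fold. Eln, Mfap2 and Fbln1 stay under the lower dashed line in each setting, and only the bars of Fbn1 and Efemp2 cross 0.

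Beyond the 10 genes, 9 lists of elastic fibre partners were described, with 56 genes of which 42 averaged 1 FPKM or more. Of these 42, 2 were 2-fold lower and none was 2-fold higher, and their median difference was 0.02. Over all 11650 genes 3.25% were 2-fold lower and 3.96% were 2-fold higher, with a median of 0.12. The lysyl oxidases, which crosslink elastin, had no 2-fold member among 5. Lox was at 59.0 FPKM in the shTaz column and 31.2 FPKM in the shLuc column (log2 difference 0.90), and Loxl1, the family member tied to elastic fibre upkeep, at 77.9 FPKM in the shTaz column and 116.3 FPKM in the shLuc column (-0.57). With the GC trend removed the differences were 0.47 for Lox and -0.15 for Loxl1. The ratio of Eln to Lox was 0.535 in the shTaz column and 5.89 in the shLuc column. The list median was 0.24 and stayed above 0 in the 11 alternatives.

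Genes of proteins that sit on the microfibril differed in both directions, with none 2-fold in the values as deposited. Of the 4 latent TGF-beta binding proteins, Ltbp1 was at 37.6 FPKM in the shTaz column and 23.2 FPKM in the shLuc column, and Ltbp4, which also takes part in elastin assembly, at 22.7 FPKM in the shTaz column and 28.8 FPKM in the shLuc column. The median of this list was -0.03, and its sign turned in 5 of the 11 alternatives. Emilin1, a glycoprotein at the boundary of elastin and microfibril, was at 23.7 FPKM in the shTaz column and 38.6 FPKM in the shLuc column, and its relative Mmrn2 was at 2.57 FPKM in the shTaz column and 3.92 FPKM in the shLuc column. Of the further fibulins, Fbln7 was at 0.812 FPKM in the shTaz column and 1.95 FPKM in the shLuc column, and Efemp1 (fibulin-3) at 3.17 FPKM in the shTaz column and 2.21 FPKM in the shLuc column. Of 9 ADAMTS and ADAMTS-like genes, a family with members that bind fibrillin, 5 reached a mean of 1 FPKM. Adamtsl5 was at 1.61 FPKM in the shTaz column and 4.22 FPKM in the shLuc column, just short of 2-fold at -0.998 and 2-fold lower in 5 of 10 alternatives (down to -1.39), and Adamtsl3 at 10.3 FPKM in the shTaz column and 5.26 FPKM in the shLuc column, a difference of 0.85 that reached 1.12 in 1 of 11 alternatives. Fbln7, at -0.70, was 2-fold lower in 2 of 10 alternatives, down to -1.27. Furin, a protease that processes profibrillin, was at 69.0 FPKM in the shTaz column and 74.1 FPKM in the shLuc column.

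Receptors and proteases divided differently. Of 8 measured elastin-binding receptor genes 7 were higher and none 2-fold, beside 58.3% of all 11650 genes that were higher, and 4 of the 8 lay below the median of all genes. The list had a median of 0.20 that was above 0 in 10 of the 11 alternatives and -0.0016 with the length trend removed. The integrin gene Itgav was at 12.8 FPKM in the shTaz column and 7.63 FPKM in the shLuc column, and Neu1, the sialidase of the elastin receptor complex, at 13.4 FPKM in the shTaz column and 9.55 FPKM in the shLuc column. The elastases, which break elastin down, included both of the 2-fold lower partner genes. Mmp9 was at 45.0 FPKM in the shTaz column and 125.0 FPKM in the shLuc column (log2 difference -1.45), and Ctsk, the protease cathepsin K, at 59.9 FPKM in the shTaz column and 146.7 FPKM in the shLuc column (-1.28). Ctss, the elastase cathepsin S, was at 536.6 FPKM in the shTaz column and 269.7 FPKM in the shLuc column (0.99). Its difference was 2-fold in 3 of 11 alternatives, and 0.65 with the GC trend removed. Of 8 measured elastases 4 were lower and 4 higher. Among 6 TGF-beta ligands and receptors none was 2-fold different, with the 3 receptors higher and the 3 ligands lower in the values as deposited. The log2 difference was -0.19 for Tgfb1, -0.16 for Tgfb2 and -0.29 for Tgfb3, and the sign turned in 3 of 11 alternatives for Tgfb1 and in 1 for Tgfb2. The receptor gene Tgfbr1 was at 7.07 FPKM in the shTaz column and 3.22 FPKM in the shLuc column, 2-fold higher in 3 of 11 alternatives, and the co-receptor gene Tgfbr3 at 5.98 FPKM in the shTaz column and 3.32 FPKM in the shLuc column.

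**Figure D5:**
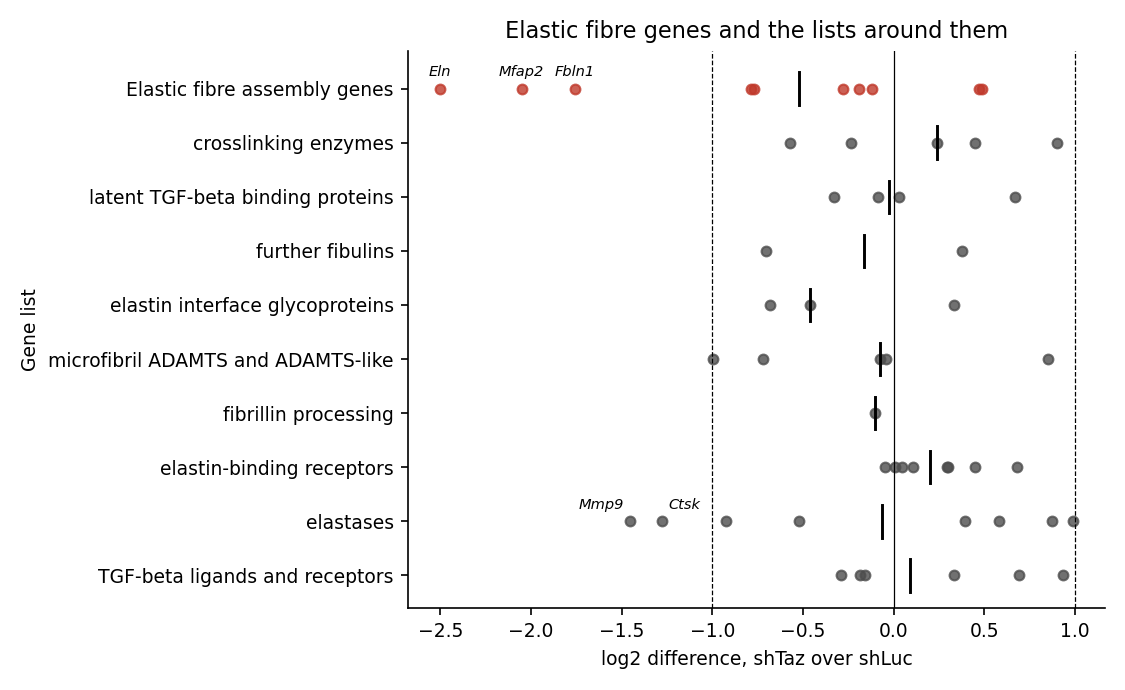
Difference on the log2(FPKM + 1) scale, shTaz over shLuc, of each gene that averaged 1 FPKM or more in the elastic fibre set (red) and in 9 lists of partner genes (grey), with a black bar at each list's median and dashed lines at 2-fold. Eln, Mfap2 and Fbln1 lie beyond the lower line, with Mmp9 and Ctsk as the only partner genes beyond either line.

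Of 4 genes that share the MFAP name without the matrix role, 3 averaged 1 FPKM or more. None of these was 2-fold different on the log2(FPKM + 1) scale in the values as deposited. Mfap1a, a splicing factor gene, was at 9.92 FPKM in the shTaz column and 5.07 FPKM in the shLuc column, and its near-identical copy Mfap1b at 3.20 FPKM in the shTaz column and 1.50 FPKM in the shLuc column. Mfap1a was 2-fold higher in 1 of 11 alternatives and Mfap1b in 3 of 10. With the GC trend removed the log2 differences were 0.42 for Mfap1a and 0.32 for Mfap1b. How fragments were divided between these copies is not known, so both values are uncertain. Mfap3 was at 12.4 FPKM in the shTaz column and 8.50 FPKM in the shLuc column, a log2 difference of 0.50 that was 0.14 with the GC trend removed, and Mfap3l had a listed 0 in shTaz tumours, against 0.110 FPKM in shLuc tumours.

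In the annotations that the deposited table carries, the extracellular region term was held by all 10 genes, beside 6.49% of annotated genes. Narrower terms split the set. The microfibril term was held by Fbn1, Fbn2, Mfap2 and Mfap5, 4 of the 7 genes with it among 14233 annotated genes, and the elastic fibre term by Eln and Fbln5 alone. The calcium ion binding term was held by the fibrillins and fibulins, 6 of the set against 411 of all annotated genes. Within the microfibril group the log2 differences ran from -2.05 for Mfap2 to 0.47 for Fbn2, so the term did not mark 1 direction.

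In bulk tumours fewer cells of a type and less RNA per cell cannot be told apart, and tumour and host RNA are both from mouse. Marker lists of other cell types are given as counts and sums. The sums are not scaled to the column totals, which were 427921 FPKM for shTaz and 501728 FPKM for shLuc. Of 10 fibroblast markers 5 were 2-fold lower and none was 2-fold higher, none was at 0, and their sum was 1407 FPKM in shTaz tumours and 2193 FPKM in shLuc tumours. By any amount 9 of the 10 fibroblast markers were lower and 1 was higher, with a median difference of -0.89. Of all 11650 genes, 3.25% were 2-fold lower, 3.96% were 2-fold higher and 41.7% were lower by any amount. The 5 that were 2-fold lower were Dpt (log2 difference -3.16), Dcn (-2.38), Col1a2 (-1.27), Pi16 (-1.22) and Thy1 (-1.07). With the GC trend removed Thy1 was at -0.92, no longer 2-fold lower. The 1 higher marker was Pdgfra, a fibroblast receptor gene, at 13.5 FPKM in the shTaz column and 8.75 FPKM in the shLuc column. Col3a1 was at 371.2 FPKM in the shTaz column and 372.3 FPKM in the shLuc column. The 6 smooth muscle markers summed to 38.9 FPKM in shTaz tumours and 68.4 FPKM in shLuc tumours, with 1 of the 5 tested 2-fold lower and 1 2-fold higher, and Myh11, the defining smooth muscle myosin, at 0.218 FPKM in the shTaz column and 0.279 FPKM in the shLuc column. The 8 endothelial markers summed to 88.6 FPKM in shTaz tumours and 133.04 FPKM in shLuc tumours. None of 7 tested was 2-fold different, 5 were lower and 2 higher, and their median difference was -0.10. The lowest was Plvap (log2 difference -0.88), at 36.2 FPKM in the shTaz column and 67.2 FPKM in the shLuc column. The difference was -0.08 for Pecam1 and -0.10 for Cdh5, and the 2 higher were Kdr (0.45) and Emcn (0.17). The 5 pericyte markers summed to 16.1 FPKM in shTaz tumours and 15.1 FPKM in shLuc tumours, and of 4 tested 1 was 2-fold lower (Notch3, log2 difference -1.50) and 1 was 2-fold higher (Rgs5, 1.16), with a median of -0.77. With the GC trend removed Notch3 was at -1.15 and Rgs5 at 0.64, no longer 2-fold higher. Of the other lists, skeletal muscle markers summed to 37.9 FPKM in shTaz tumours and 15.1 FPKM in shLuc tumours, with 4 of 5 tested 2-fold higher. Acta1, Myh4 and Myl1 were listed at 0 in the shLuc column. The remaining tested marker, Tnnc2, was lower, at 5.86 FPKM in the shTaz column and 12.4 FPKM in the shLuc column (log2 difference -0.96). Tnnc2 thus made up most of the shLuc sum. Neutrophil markers summed to 55.6 FPKM in shTaz tumours and 5.77 FPKM in shLuc tumours, with 2 of 3 tested 2-fold higher, S100a8 listed at 0 in the shLuc column and Mmp8 listed at 0 in the shTaz column. Macrophage markers summed to 2519 FPKM in shTaz tumours and 2870 FPKM in shLuc tumours. Of the 7 macrophage markers, however, 4 were higher and 3 lower, with a median difference of 0.36. The most abundant of them, C1qa, was at 1470 FPKM in the shTaz column and 1868 FPKM in the shLuc column. Erythroid markers summed to 381.1 FPKM in shTaz tumours and 512.6 FPKM in shLuc tumours. The sums were 33.4 FPKM in shTaz tumours and 51.1 FPKM in shLuc tumours for adipocyte, 13.2 FPKM in shTaz tumours and 10.6 FPKM in shLuc tumours for keratinocyte, and 244.1 FPKM in shTaz tumours and 221.2 FPKM in shLuc tumours for mesothelial markers. None of the tested markers in these last 5 lists was 2-fold different in the values as deposited. With the GC trend removed, the tested adipocyte markers Fabp4 (-1.02) and Lpl (-1.18) were 2-fold lower. The keratinocyte marker Sfn (1.27) was then 2-fold higher. The part of any of these cells in the elastic fibre values was not tested.

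Set against single fibroblast genes, Eln gave different answers. The ratio of Eln to Col1a1 was 0.0376 in the shTaz column and 0.134 in the shLuc column, that to Col1a2 was 0.229 in the shTaz column and 0.551 in the shLuc column, and that to Col3a1 was 0.0852 in the shTaz column and 0.493 in the shLuc column. The ratio of Eln to Dcn, the proteoglycan decorin, was 17.1 in the shTaz column and 13.3 in the shLuc column. These ratios use no pseudocount. On the log2(FPKM + 1) scale the difference was -2.50 for Eln and -2.38 for Dcn, so the order of Eln and Dcn turns with the pseudocount. It turns with the GC trend too, as with that trend removed the difference was -2.19 for Eln and -2.98 for Dcn.

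Overlapping genes may touch a few of the values, because the strand setting is not given in the sources used here. In the GENCODE annotation Efemp2 shares 173 of its 3788 exonic bases with Mus81 on the opposite strand, and Mfap4 shares 89 of 1922 with Mapk7. Mus81 was at 5.26 FPKM in the shTaz column and 5.48 FPKM in the shLuc column, and Mapk7 at 15.8 FPKM in the shTaz column and 14.7 FPKM in the shLuc column. Eln shares 267 of 8098 exonic bases with Gm30003, and Fbn1 2442 of 12128 with Gm9913. Fbn2 shares 129 of 13215 with Gm26507. Gm30003, Gm9913 and Gm26507 had no value by symbol. Each of these overlaps is with a gene on the opposite strand. Without the strand setting it is not known whether their reads were told apart.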

How the data were processed

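Per the labels' protocols, Trizol was used on frozen subcutaneous tumours and standard Illumina libraries were prepared. Trim Galore and TopHat were used with build mm10, per the submitters' processing notes; versions, the FPKM program, its annotation and the strand setting are not given in the sources used here. The authors deposited FPKM values, 1 column per group, matched to groups by a number that heads the column and stands in the description of both samples of that group.

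Differences were computed as log2 of shTaz over shLuc after adding 1 FPKM, without further scaling, for genes averaging 1 FPKM or more. This understates changes of low genes. The plan for values per sample, a limma test, could not be applied to 1 column per group, so no test was run. The members and lists were chosen with earlier results of these data known. All members were named, and in each partner list the genes with 2-fold differences, or else the 2 that differed most; Ctss, Tgfb1, Tgfb2, Tgfb3, Mfap3, Mfap3l, the marker genes printed and the ratios between genes were chosen after the values were seen. Listed genes absent by symbol were looked up by Entrez number, which found 2 under older symbols. Length, GC content and positions, counted from 1, came from the longest GENCODE M21 transcript of each gene (94.9% of tested genes had one); trends were lowess fits with a span of 0.3. Calculations used Python 3.11.15, pandas 2.3.3 and statsmodels 0.14.6, and were tested on simulated data. Promoters came from RefSeq. No column of values was left unmapped, and depth and counting error are unknown. One gene of the neuroendocrine marker list is not analysed here.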

Additional observations from a re-analysis of the deposited data

How the results depend on the processing

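No paired analysis was possible because the table holds 1 column per group, and leaving out a replicate was not run for the same reason. The counts of elastic fibre genes were 3 2-fold lower and none 2-fold higher in 9 of the 11 alternatives. With the GC trend removed, by either kind of transcript, 4 were 2-fold lower, the added gene being Mfap5, and the cause was not tested. Fbn1 and Efemp2 were higher in the shTaz column with columns scaled to a sum of 1000000 and lower in the other 10 alternatives. The median of the 10 genes ran from -0.68 to -0.33.

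The count of all genes 2-fold higher, 461 as reported, moved most. It was 996 with a pseudocount of 0.1, 1045 with none, 219 with a mean of at least 5 FPKM (which tests fewer genes, and gave 215 lower), 294 after quantile normalization, 293 after removing the length trend, 166 with the GC trend removed, 145 with that trend set by protein-coding transcripts, 189 with both trends removed and 1409 with columns scaled to 1000000. The share of higher genes among the 2-fold ones was 54.9% as reported, 38.5% with median-ratio scaling and 81.1% with columns scaled to 1000000. The median of all genes, 0.12 as reported, was 0.34 with columns scaled to 1000000 and between -0.0023 and 0.14 in the other alternatives. Removing the GC trend, the length trend, both, and scaling were chosen with earlier results known; scaling to 1000000, the absent pseudocount and the protein-coding transcripts were added after seeing the data. Depth is unknown, so the precision of low values such as Mfap2 at 1.61 FPKM cannot be given.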
